A study of Mus musculus with 2 samples.

Results

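The Hox genes are the 39 mouse genes, of 32285 in the count tables, whose symbols are Hoxa, Hoxb, Hoxc or Hoxd followed by a paralog number. The rule used the symbol alone and no measured value, and the members were ordered by paralog number, from 1 to 13. All 39 had UMIs (unique molecular identifiers, one per captured transcript) in the cells kept. They summed to 101065 UMIs, from 123 for Hoxd12 to 8457 for Hoxc8, with Hoxa7 at 8280, Hoxb8 at 7619 and Hoxb9 at 6632.

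The members stood in 4 clusters on GRCm38. The Hoxa cluster (11 genes, 27706 UMIs) spanned chr6:52155590-52260880 on the minus strand. The Hoxb cluster (10 genes, 33845 UMIs) spanned chr11:96194316-96368256, the Hoxc cluster (9 genes, 28379 UMIs) chr15:102921103-103036852 and the Hoxd cluster (9 genes, 11135 UMIs) chr2:74668310-74765142, all on the plus strand. Hoxd3 and Hoxd4 share 388 exonic bases on one strand in the annotation, and Hoxc5 and Hoxc10 share 166, so the values of these 4 genes are uncertain as far as reads fall there.

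Hox genes encode homeodomain transcription factors that tell cells where along the body they lie. Genes of low paralog number are used toward the head and those of high number toward the tail, in the order in which they lie in the cluster. In the limb, members of the Hoxa and Hoxd clusters from group 9 upward are used again from shoulder or hip to digits. Cells of the trunk mesoderm, the spinal nervous system and the limb each keep a combination of these genes, often called a positional code.

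The study asked what the splicing factor Srsf2 does in cells of the Myf5 lineage of mouse embryos at embryonic day 14. Both libraries came from embryos with a Cre recombinase driven by the Myf5 promoter and with a tdTomato reporter (Rosa26-LSL-tdT) that Cre switches on. One library is labelled f/f (2 floxed Srsf2 alleles) and the other f/w (1 floxed allele), and f/w mice served as controls. Trunks and limbs, without heads and viscera, were digested, and tdTomato-positive cells were sorted and sequenced from the 3′ end on a droplet platform, so the head, where the lowest paralog groups have their front borders, was not sampled. The labels do not say how many embryos a library pools, and cells marked by the reporter here include classes outside muscle.

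The library labelled f/f held 12523 kept cells and the one labelled f/w 10345, with medians of 10751 and 9480 UMIs per cell. Srsf2 stood at 219 UMIs per 1000000 UMIs (CPM; 95% Poisson interval 217 to 221) in the library labelled f/f and at 153 (151 to 155) in the one labelled f/w, which goes against the labels if floxed alleles lower it, although 3′ reads need not cover the deleted part. Muscle-like cells made up 17.8% of the first and 1.09% of the second. The deposited summary pages also name the libraries the other way round, so the libraries are called here by their titles only and no direction between them is read as an effect of the genotype. There is 1 library per label, so no test was possible, and all intervals cover counting error only. Cell classes were set by UMI limits on marker genes and carry the ending -like. The libraries shared 74 cell barcodes, 50 of them among the kept cells.

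Over all cells the Hox genes made up 352 CPM (350 to 356) in the library labelled f/f and 388 (384 to 391) in the one labelled f/w, a log2 ratio of 0.14 (0.12 to 0.15). Among classes of over 50 cells, neuron-like (Neu-like) cells had the highest sum, with 2297 CPM (2253 to 2342) in f/f and 1798 (1772 to 1824) in f/w. They were 470 and 891 cells, led by neuronal genes such as Tubb3 and Prph. A class of 24 neural-progenitor-like cells had 1610 (1347 to 1909) and 1959 (1689 to 2260) and is not described further. Schwann-like (Sch-like) cells followed at 417 (385 to 452) and 394 (358 to 433), and mesenchyme-like (Mesen-like) cells at 356 (351 to 362) and 346 (339 to 352). The cartilage-like (Chon-like) cells stood at 228 (222 to 233) and 199 (194 to 204), close to the muscle-like (SKM-like) cells at 225 (220 to 231) and 145 (128 to 164) and to the endothelial-like (Endo-like) cells at 219 (208 to 232) and 188 (181 to 194). In f/f these last 3 classes had overlapping intervals. Bone-like (Osteo-like) cells had 258 and 221, and epithelial-like (Epi-like) cells 256 and 169. While the sum over all cells was higher in f/w, it was lower there in each of the 9 classes compared below. The intervals overlapped in Sch-like, Mesen-like and immune-like cells. Neu-like cells were 3.75% of f/f and 8.61% of f/w, so makeup and level per cell cannot be told apart in the sum over all cells.

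Blood cells gave the low end. Immune-like (Immu-like) cells had 50.1 CPM (40.9 to 60.8) and 47.0 (42.8 to 51.5), and the 28 and 26 erythroid-like (Ery-like) cells, with median depths of 11290 and 11586 UMIs against 6594 and 7388 in Neu-like cells, held 1 and 3 Hox UMIs in all. With each cell thinned to 2000 UMIs, a Hox UMI was found in 88.4% and 81.6% of Neu-like cells in f/f and f/w. The shares were 47.9% and 45.7% for Mesen-like, 33.8% and 29.9% for Chon-like, 33.8% and 25% for SKM-like and 9.09% and 8.04% for Immu-like cells. No Ery-like cell thinned to this depth had one, and the exact binomial upper limits on such cells are 12.3% and 13.2%. Without thinning the shares were 99.8% and 96.0% in Neu-like, 89.6% and 84.0% in Mesen-like, 32.3% and 31.4% in Immu-like and 3.57% and 11.5% in Ery-like cells. A Neu-like cell had a median of 9 different Hox genes in each library, and a Mesen-like cell 2. In blood-like cells free RNA may give such UMIs, and its part was not tested.

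**Figure D1:**
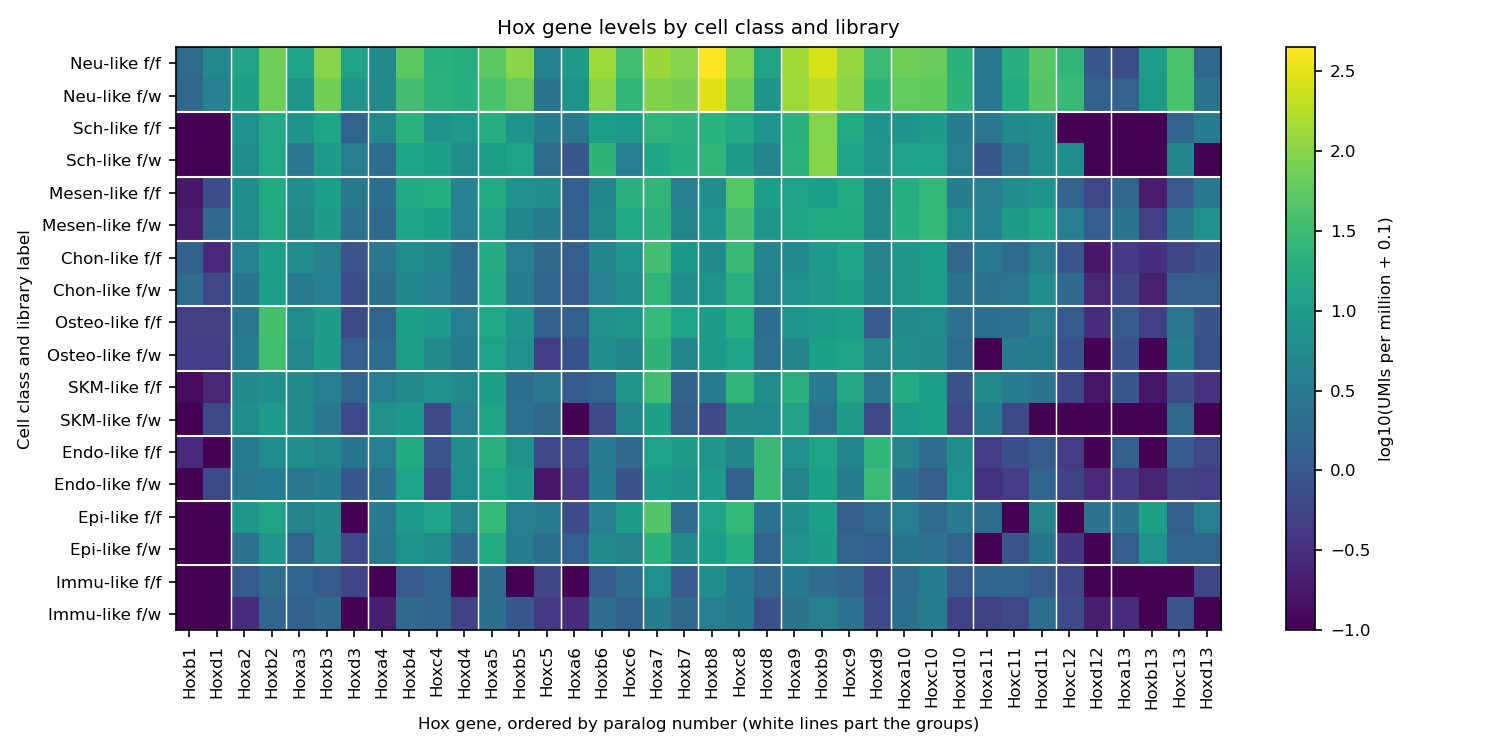
Level of Hox genes (columns, by paralog number) in 9 cell classes of each library (lines), as log10 of CPM plus 0.1. The Neu-like lines are the brightest, at 449 and 302 CPM for Hoxb8, and the Immu-like lines the darkest.

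In Neu-like cells Hoxb8 was first with 449 CPM in f/f and 302 in f/w, and Hoxb9 next with 274 and 197. Hoxa9 (134 and 130), Hoxb6 (130 and 101) and Hoxa7 (128 and 92.3) came after these. The Hoxb cluster gave 55.7% and 51.9% of all Hox UMIs of these cells. Of the 39 members, 31 in f/f and 30 in f/w had their highest level among the 9 classes in Neu-like cells, 28 of them in both. Where the level is from a 3′ count of molecules, no length enters, and genes can be set side by side as captured molecules.

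The tail-most members were part of this neuronal set. Hoxc13 had 41.6 and 40.5 CPM in Neu-like cells against 0.947 and 2.69 in Mesen-like cells. Hoxc12 had 25.5 and 28.8 against 1.37 and 3.57, and Hoxb13 10.8 and 9.60 against 0.0881 and 0.393. The group 13 members that act in the digits and the genital region were low in both classes, with Hoxa13 at 0.664 and 1.31 CPM in Neu-like against 1.5 and 2.33 in Mesen-like cells and Hoxd13 at 1.55 and 2.43 against 2.93 and 6.72.

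Sch-like cells, the glia of nerves, were led by Hoxb9 at 93.1 and 98.8 CPM, with Hoxb8 at 22.8 and 24.7 and Hoxa7 at 24.1 and 14.6. Their Hoxb share was 49.9% and 55.7%. In Osteo-like cells Hoxb2, which patterns the hindbrain and branchial region in textbook accounts, led with 39 and 34.6 CPM, ahead of Hoxa7 with 28.2 and 23.5. Their UMI-weighted mean paralog number, 6.10 and 6.16, was the lowest of the 9 classes in each library. Paralogs 9 to 13 gave 21.7% and 27.2% of their Hox UMIs, against 33.4% and 43.3% in Mesen-like and 37.8% and 41.5% in Neu-like cells.

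Mesen-like cells were led by Hoxc8, a thoracic gene, at 49.3 and 37.0 CPM, then by Hoxc10 at 26.0 and 27.0 and Hoxa7 at 25.6 and 22.8. The Hoxc cluster gave 40.9% and 37.0% of their Hox UMIs. Chon-like cells had Hoxa7 first at 35.8 and 24.2 CPM and Hoxc8 next at 29.3 and 20.8, with the Hoxa cluster largest at 37.0% and 33.1%. SKM-like cells also had Hoxa7 first in f/f, at 33.6 CPM, while their 113 cells in f/w had 12. The Hoxa cluster gave 46.5% and 48.5% of their Hox UMIs and the Hoxb cluster 11.9% and 18.8%. Endo-like cells differed by their Hoxd share of 32.0% and 41.1%, with Hoxd8 at 28.7 and 29.7 CPM and Hoxd9 at 24.3 and 31.3. Epi-like cells, 100 and 151 in number, were led by Hoxa7 at 46.5 and 22.1 CPM and held Hoxb13 at 11.3 and 7.38 CPM. The 19 and 26 UMIs of Hoxb13 lay in only 6% and 2.65% of these cells. Tail skin is a known site of Hoxb13.

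Whether cells use neighbouring paralog groups together was described in the single cells. For each member with at least 30 cells that held its UMI and as many that did not, the UMIs of every other member in those cells were compared with the number their level in the cells without that UMI would give. In Mesen-like cells of f/f the log2 ratio of observed to expected UMIs was 1.04 for pairs of the same group, 0.96 for groups 1 apart, 0.14 at 3 apart, -0.44 at 6 apart and -1.34 at 11 apart. In f/w it was 1.24, 1.07, 0.30, -0.11 and -0.85 at the same distances. The ratio thus fell from distance 0 to 9 in each library and crossed 0 between distances 4 and 5. Pairs share their cells and the library, so these values are a description.

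**Figure D2:**
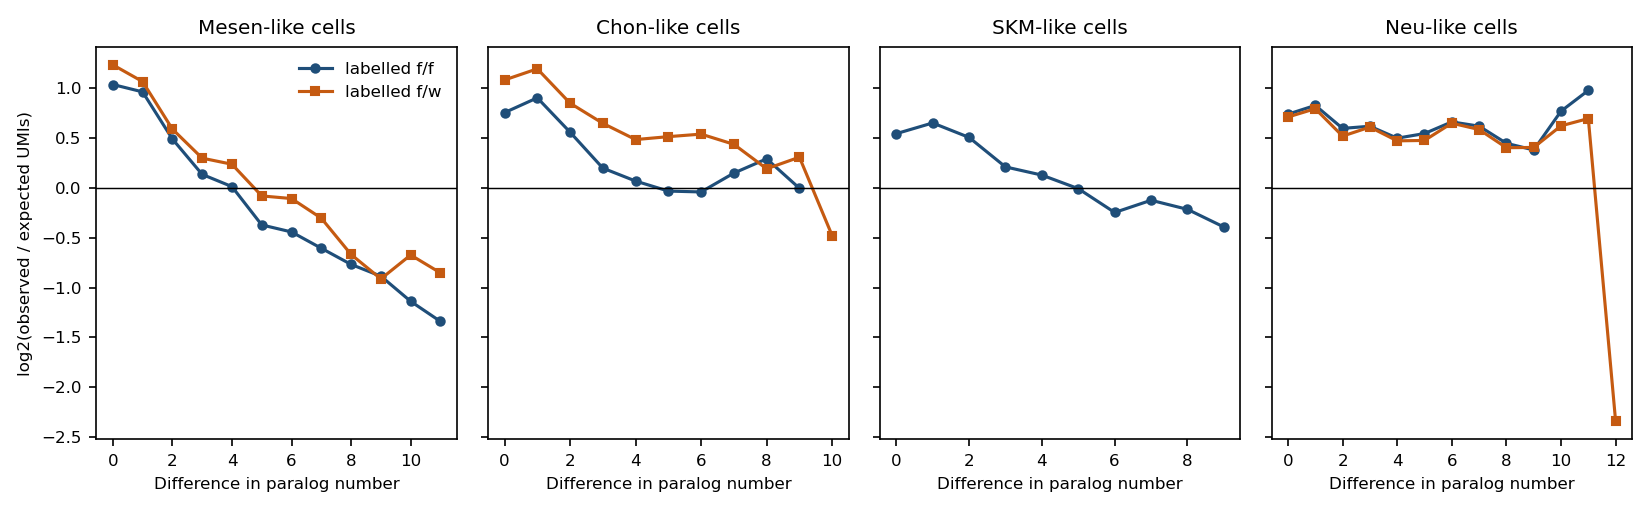
Log2 ratio of observed to expected UMIs of a second Hox gene in cells with a UMI of a first, against the difference in their paralog numbers, in 4 classes. In Mesen-like cells the line falls from 1.04 to -1.34 in f/f and from 1.24 to -0.85 in f/w, while Neu-like cells stay above 0 up to distance 11.

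Neu-like cells showed another form. Their ratio lay above 0 at every distance from 0 to 11 in each library, with 0.74 and 0.71 for the same group and 0.38 and 0.41 at distance 9. It did not keep falling with distance, with 0.77 and 0.62 at distance 10 and 0.98 and 0.70 at distance 11. At distance 12 it was -2.34 in f/w. Chon-like cells of f/f went from 0.76 in the same group to -0.03 at distance 5, 0.29 at distance 8 and 0.00 at distance 9. Those of f/w went from 1.08 to 0.52 and 0.31 at distances 5 and 9, above 0 at each distance up to 9. SKM-like cells of f/f went from 0.55 to -0.39 at distance 9. Bins with fewer than 20 expected UMIs are not described.

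Single members made the same picture concrete in Mesen-like cells. The 523 cells of f/f with a UMI of Hoxa5, a gene of the neck and upper thorax, had Hoxb5 at 14.7 CPM against 5.48 in the rest, and the 278 cells of f/w had 16.9 against 3.07. Their Hoxa4 was 5.98 against 1.37 and 7.58 against 0.997, and their Hoxd13 1.05 against 3.25 and 2.91 against 7.20. The cells with Hoxc10, a lumbar and hindlimb gene, had Hoxa10 at 52.8 against 11.6 in f/f (681 cells) and 38.5 against 14.8 in f/w (502 cells). These cells were low in Hoxa7, at 12.9 against 28.2 and 10.3 against 26.0. So the cells with Hoxa5 were high in Hoxb5 and Hoxa4 and low in Hoxd13. Those with Hoxc10 were high in Hoxa10 and low in Hoxa7. Hoxd13 had only 133 and 205 UMIs over all Mesen-like cells of f/f and f/w, so its values in the Hoxa5 cells rest on few UMIs.

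The members of group 13 were also described in single cells. Mesen-like cells with a Hoxd13 UMI, 78 in f/f and 140 in f/w, had Hoxa13 at 38.9 CPM against 0.961 and at 29.6 against 1.39 in the other cells. Hoxc11 was 66.9 against 5.12 and 66.2 against 8.54, and Hoxd11 63.8 against 6.95 and 77.1 against 12. Hoxc13 had 0 and 1 UMI in these cells. Neu-like cells with a Hoxc13 UMI, 88 and 176, had Hoxc12 at 111 CPM against 11.6 and at 110 against 11.2, and Hoxb13 at 58.5 against 3.09 and at 33.9 against 4.31. Their Hoxd11 was 147 against 34.2 and 108 against 34.0.

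Limb position was read from genes outside the family, in Mesen-like, Chon-like and Osteo-like cells together. Forelimb cells held a UMI of Tbx5, hindlimb cells one of Tbx4 or Pitx1, and axial cells one of Pax1 or Pax9, which mark the sclerotome. Forelimb cells held no Tbx4 or Pitx1, hindlimb cells no Tbx5 and axial cells none of these limb genes. The names stand for these gate genes alone, and where the cells lay was not seen. Limb cells could hold Pax1 or Pax9, with 50 and 60 UMIs of Pax1 in f/f and f/w. There were 104 and 104 forelimb, 343 and 261 hindlimb and 1046 and 1029 axial cells in f/f and f/w. A member was counted where it passed 1.5-fold the same way in both libraries, with at least 20 UMIs over both gates in each. Genes with that many UMIs are called tested, although 1 library per label allowed no statistical test. The mean paralog number was 8.12 and 8.40 in limb cells against 6.85 and 7.19 in axial cells.

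Of the 34 members tested in limb against axial cells, 7 were higher and 5 lower in limb, where 3.81% and 2.17% of all 12582 genes tested were. The higher ones were Hoxa9, Hoxa10, Hoxa11, Hoxc11, Hoxd11, Hoxa13 and Hoxd13, all of group 9 or above. Hoxd13, needed for digits, was at 8.60 CPM against 0.932 in f/f and at 19.1 against 0.483 in f/w, log2 ratios of 3.20 (2.26 to 4.26) and 5.30 (4.12 to 6.79). Hoxa13, its partner in the hand and foot plate, was at 4.97 against 0.622 and at 5.72 against 0.322. Hoxa10, a gene of the upper limb segments, was at 50.8 against 11.8 and at 29.1 against 15.1. The distance was larger in f/f for Hoxa10 and in f/w for Hoxd13, and was not tested between libraries. Isl1, whose cells are described below and held most Hoxd13 UMIs of Mesen-like cells, was also higher in limb cells. It was at 25.6 CPM against 2.64 in f/f and at 78.7 against 4.19 in f/w. The part of Isl1 cells in the limb values of Hoxd13 and Hoxa13 was not tested.

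The 5 lower members were Hoxa4, Hoxd4, Hoxb6, Hoxb7 and Hoxc12. Hoxb7 was at 4.39 CPM in limb against 9.87 in axial cells of f/f and at 2.39 against 6.68 in f/w. Hoxb6 was at 4.78 against 8.39 and at 3.34 against 7.41. For Hoxa4, Hoxd4 and Hoxc12, and for Hoxa11 among the higher ones, the interval in f/w spanned 0. The count of lower members was 2 with doubled marker limits and 11 with cells that met the limits of 1 class only, and that of higher members was 4 with 2 UMIs of a gate gene required and 1 in Chon-like cells alone. The median log2 ratio of the 34 members was -0.38 in f/f and -0.14 in f/w, against 0.07 and 0.08 over all genes.

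Between the limbs, 21 members were tested and 2 were higher and 9 lower in hindlimb than in forelimb cells, against 1.47% and 1.5% of all 9858 genes. Hoxc10 was higher, at 36.0 CPM against 17.0 in f/f and 31.6 against 19.5 in f/w, log2 ratios of 1.08 (0.41 to 1.82) and 0.69 (0.02 to 1.43). Hoxa11, a gene of the forearm and lower leg, was at 15.7 against 6.49 and at 5.87 against 3.55, with an interval in f/w that spanned 0. Among the lower members Hoxb8, known from the early forelimb bud, was at 4 CPM in hindlimb against 19.5 in forelimb cells of f/f and at 2.93 against 17.8 in f/w. Its ratios were -2.28 (-3.29 to -1.31) and -2.60 (-3.92 to -1.40).

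Hoxa7 and Hoxd13 were also lower in hindlimb cells, with intervals below 0 in each library. Hoxa7 was at 16.0 against 28.4 and 10.4 against 21.3 CPM, and Hoxd13 at 6.25 against 16.2 and 16.0 against 27.5. Isl1 was lower there too, at 20.5 against 42.2 and 61.9 against 124 CPM, and Tbx3 at 36.0 against 85.1 and 70.1 against 137. The part of Isl1 cells in the Hoxd13 values was not tested. For Hoxb2, Hoxa3, Hoxb3, Hoxb4, Hoxc4 and Hoxd10 the interval spanned 0 in at least 1 library. Some of the 9 had few UMIs, such as Hoxd10 with 17 in hindlimb and 9 in forelimb cells of f/f. The count of 9 fell to 1 with cells that met the limits of 1 class only and to 3 in Mesen-like cells alone. It was 0 in Chon-like cells alone or with 2 UMIs of a gate gene required. The cause of these moves was not tested.

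A group of Mesen-like cells with a UMI of Isl1 carried the distal members most. Isl1 is a homeodomain factor of the early hindlimb field and of genital and tail mesenchyme, and the cells with it also had Tbx3, a T-box factor of limb margins, at 193 and 213 CPM against 17.3 and 16.3 in the rest. There were 209 in f/f, 4.96% of the class (4.33 to 5.66), and 356 in f/w, 12.4% (11.2 to 13.6). In Neu-like cells, a larger share of f/w than of f/f, Isl1 was at 301 and 378 CPM. Free RNA may give a Mesen-like cell an Isl1 UMI, and its part in these shares was not tested. Of the 565 cells, 101 were also hindlimb, 58 forelimb and 24 axial cells by the gates above. Their Hox sum was 552 and 473 CPM against 348 and 333, and their mean paralog number 9.11 and 9.48 against 6.87 and 7.23.

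Of 36 members tested, 9 were higher with Isl1 in both libraries and 4 lower, where 7.82% and 3.57% of all 13913 genes were. Hoxd13 was at 58.2 CPM against 0.551 in f/f and 62.7 against 1.26 in f/w, log2 ratios of 6.72 (6.07 to 7.42) and 5.64 (5.11 to 6.21). Hoxa13 was at 21.4 against 0.643 and 21.4 against 0.468, log2 ratios of 5.05 (4.32 to 5.80) and 5.52 (4.63 to 6.51). Most of the Mesen-like UMIs of Hoxd13 thus lay in a small share of the cells, 109 of 133 in f/f and 170 of 205 in f/w. Hoxd12, the neighbour of Hoxd13, had 7 and 22 UMIs, 3.74 CPM against 0.391 and 8.11 against 0.432.

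Members of groups 11, 10 and 9 followed at lower ratios. Hoxc11 was at 44.8 CPM against 4.32 and 40.9 against 7.48, Hoxd11 at 37.4 against 6.48 and 48.7 against 10.8, and Hoxa11 at 19.2 against 3.01 and 11.8 against 3.20. Hoxa10 was at 64.1 against 16.8 and 43.1 against 17.3, Hoxd10 at 15.5 against 2.89 and 10.3 against 5.32, and Hoxa9 at 29.4 against 11.6 and 35.0 against 11.4. The 4 lower members were Hoxb2, Hoxc6, Hoxa7 and Hoxd8, with Hoxa7 at 12.8 against 26.1 and 10.7 against 24.0, and a 5% mitochondrial limit gave 8 lower. Of the rest of group 13, Hoxc13 had 0 and 3 UMIs in these cells, and Hoxb13, with 4 and 12 UMIs in the cells without Isl1, had none, too few to compare. Evx2, next to Hoxd13 at the end of the cluster, had 2 and 9 UMIs with Isl1 and 1 and 1 without.

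**Figure D3:**
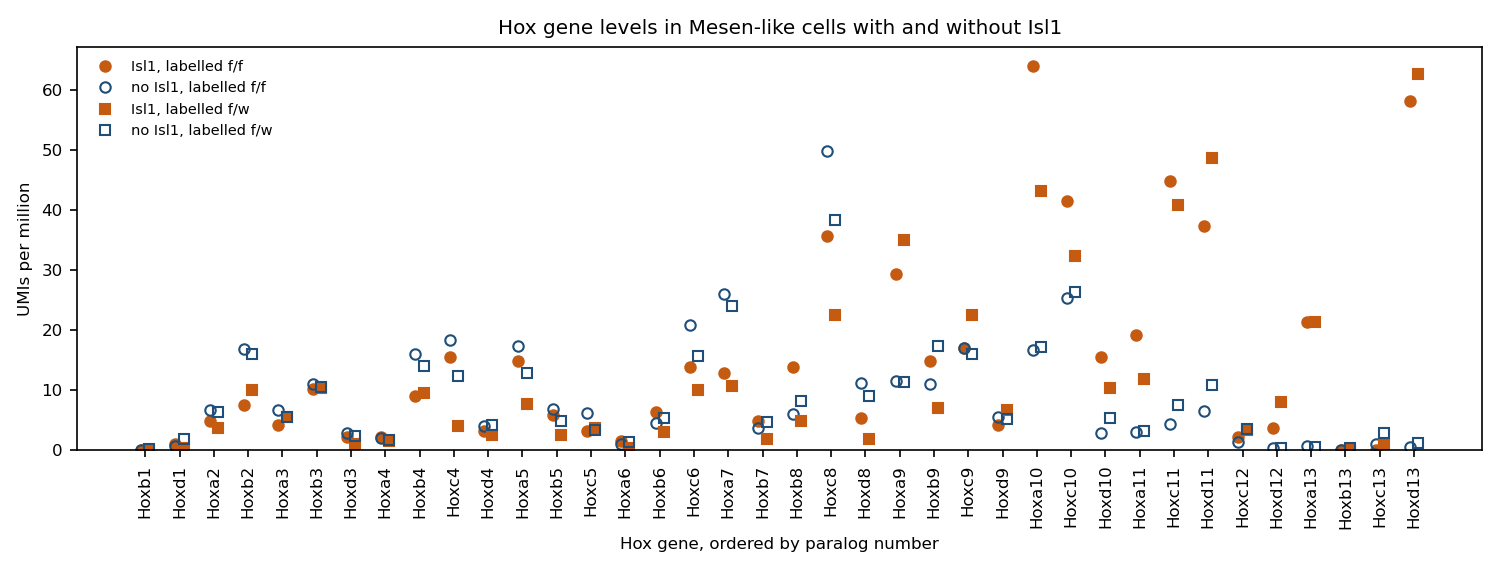
Level of Hox genes in CPM in Mesen-like cells with (filled) and without (open) an Isl1 UMI, in the libraries labelled f/f (circles) and f/w (squares). The filled points lie far above the open ones at Hoxa13 and Hoxd13, with Hoxd13 at 58.2 and 62.7 against 0.551 and 1.26.

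The 250 bases in front of the starts of Hoxa13 and Hoxd13 are shown because these members of different clusters were both high in the Isl1 cells. They are RefSeq sequence on GRCm38.p6, 5′ to 3′ along each gene, chr6:52260881-52261130 on the minus strand and chr2:74667975-74668224 on the plus strand. Capitals mark matches to CCAAT on either strand.
Hoxa13: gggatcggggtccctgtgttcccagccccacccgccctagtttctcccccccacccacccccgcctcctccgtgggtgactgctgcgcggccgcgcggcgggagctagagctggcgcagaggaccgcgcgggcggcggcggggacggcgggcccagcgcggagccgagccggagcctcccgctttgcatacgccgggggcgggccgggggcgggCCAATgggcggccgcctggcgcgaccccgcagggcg
Hoxd13: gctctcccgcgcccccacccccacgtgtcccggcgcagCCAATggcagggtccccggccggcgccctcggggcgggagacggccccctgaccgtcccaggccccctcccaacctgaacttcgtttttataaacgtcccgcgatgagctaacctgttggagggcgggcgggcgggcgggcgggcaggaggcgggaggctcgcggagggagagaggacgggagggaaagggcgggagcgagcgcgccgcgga

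These windows held 35 and 31 CG dinucleotides, against a median of 6 over 32851 promoters and of 12 over the 22 Hox genes that have a promoter in the table. Each held 1 CCAAT, a motif found in 33.8% of all promoters and in 13 of the 22 members. The motif was looked for after the windows had been seen. Neither window held TGATTNAT (a joint Pbx and Hox site, 2.82% of promoters and 1 member), TGACAG (Meis, 15.9% and 2 members) or TTTATNG (Cdx and posterior Hox, 9.81% and 2 members), with both strands searched.

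Between the libraries, in Mesen-like cells, 4 of 29 members tested were higher in f/w and 2 lower, where 2.75% and 3.07% of all 11201 genes were. The directions given are between the libraries as titled, and the Srsf2 level goes against those titles. A gene was tested here with at least 200 UMIs over both libraries and counted past 1.5-fold. The higher ones were Hoxd10 (3.41 CPM in f/f and 5.77 in f/w), Hoxc11 (5.99 and 10.5), Hoxd11 (7.75 and 14.2) and Hoxd13 (2.93 and 6.72), with log2 ratios of 0.76 (0.44 to 1.08), 0.80 (0.57 to 1.04), 0.87 (0.66 to 1.08) and 1.20 (0.88 to 1.52). Hoxc4 (18.2 and 11.7) and Hoxc5 (6.12 and 3.44) were lower, at -0.64 (-0.83 to -0.46) and -0.83 (-1.17 to -0.50).

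The order by paralog number was uneven. The median log2 ratio was -0.16 over the 8 tested members of groups 1 to 4, -0.40 over the 10 of groups 5 to 8 and 0.13 over the 11 of groups 9 to 13, against -0.06 over all genes. Over the 7 of groups 10 to 13 alone it was 0.76, with all 7 above 0 and 4 with intervals above 0. Below the minimum of 200 UMIs, Hoxc12 went from 62 to 109 UMIs and Hoxc13 from 43 to 82, log2 ratios of 1.39 (0.92 to 1.86) and 1.51 (0.96 to 2.07). The mean paralog number of the class was 7.01 in f/f and 7.51 in f/w.

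**Figure D4:**
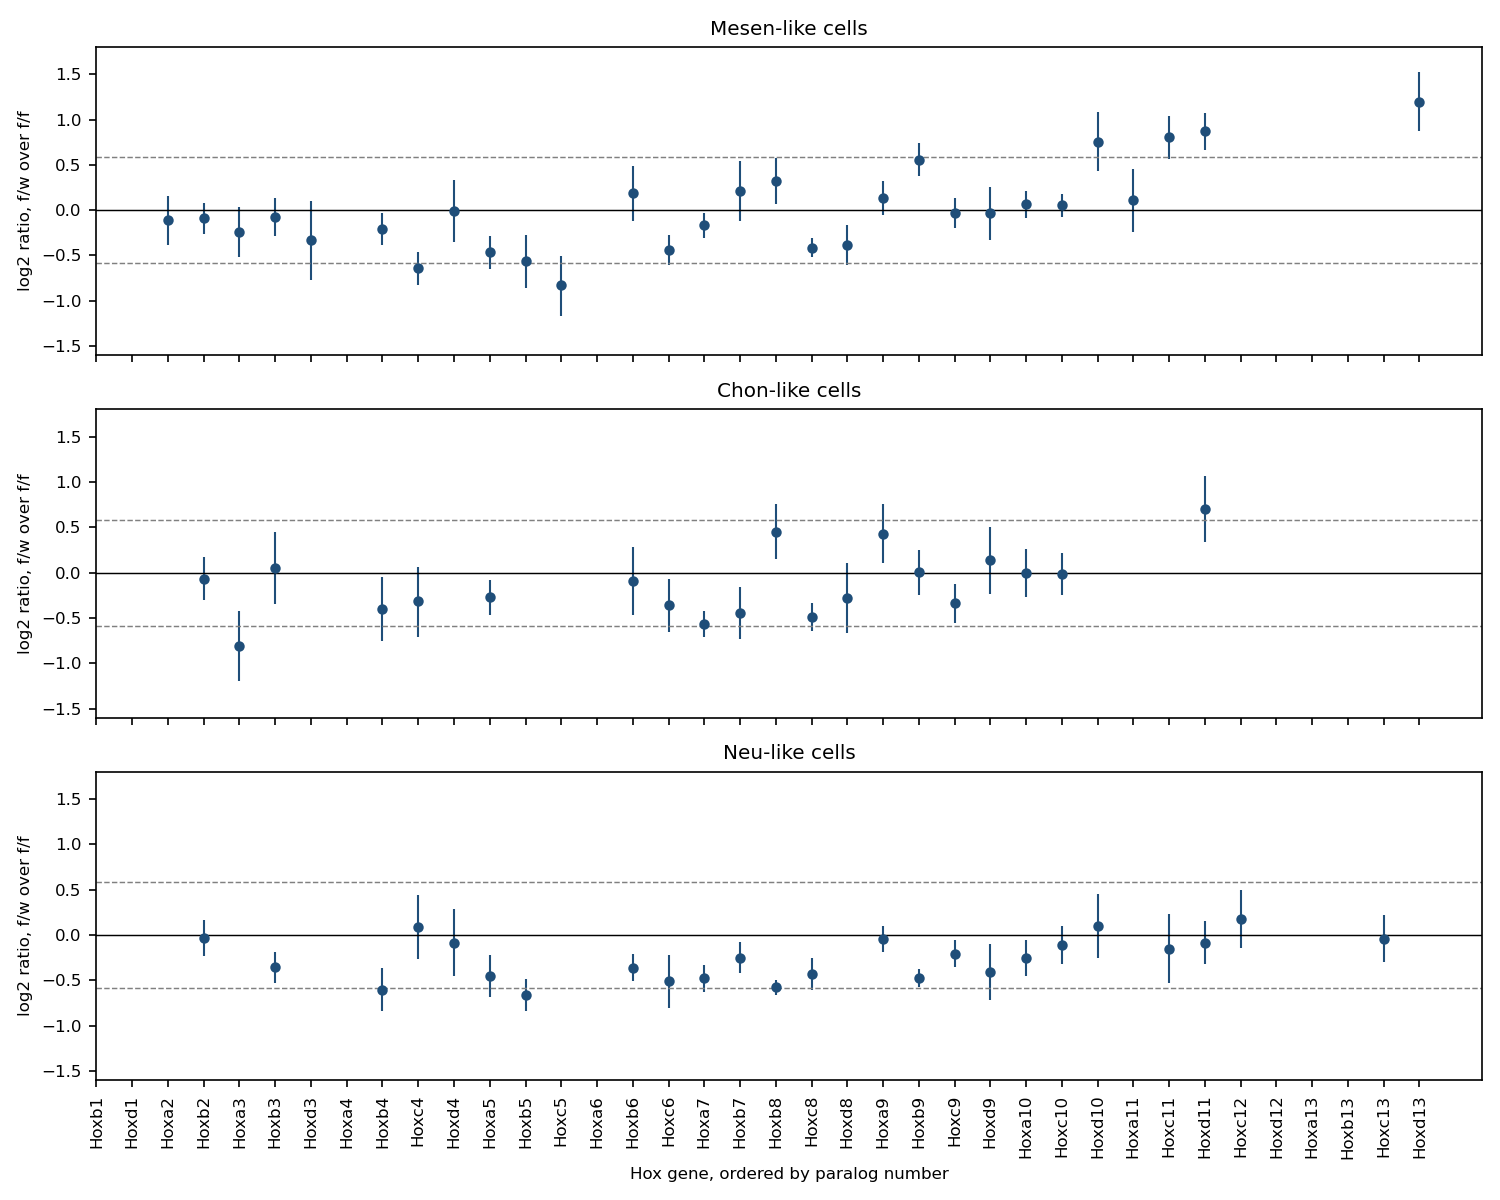
Log2 ratio of tested Hox genes, f/w over f/f, with its 95% counting interval, in Mesen-like, Chon-like and Neu-like cells; dashed lines mark 1.5-fold. In Mesen-like cells the members past the upper line run from Hoxd10 at 0.76 to Hoxd13 at 1.20, and in Neu-like cells none pass it.

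The share of Isl1 cells moved with these values, since it was higher in f/w. Inside the Isl1 gate Hoxd13 was at 58.2 and 62.7 CPM, a log2 ratio of 0.11 (-0.25 to 0.47), and outside it at 0.551 and 1.26, a ratio of 1.19 (0.40 to 2). Without the Isl1 cells, a choice made after seeing the data, 27 members were tested, and Hoxb9, Hoxd10, Hoxc11 and Hoxd11 were higher, at 0.66, 0.88, 0.79 and 0.74, against 2.53% of all genes. Hoxd13 then fell below the UMI minimum, with 24 and 35 UMIs. Hoxc5 stayed lower, and Hoxc4, at -0.56 (-0.75 to -0.38), lay just inside the limit. Inside the Isl1 gate Hoxd10 was at -0.58 (-1.39 to 0.22), Hoxc11 at -0.13 (-0.55 to 0.30) and Hoxd11 at 0.38 (-0.05 to 0.82). The part of the share of Isl1 cells in the library ratios, and that of free Isl1 RNA in this share, was not tested.

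Neu-like cells gave no member higher in f/w and 2 lower of 24 tested, against 1.26% and 1.25% of 7605 genes. Hoxb5 fell from 99.2 to 62.7 CPM between f/f and f/w, at -0.66 (-0.84 to -0.48), and Hoxb4 from 54.5 to 35.9, at -0.60 (-0.84 to -0.36). Hoxb8, at -0.57 (-0.66 to -0.49), lay just inside the limit. The 8 tested members of groups 5 to 8 all had intervals below 0, with a median of -0.46, while the 7 of groups 10 to 13 had a median of -0.08. With cells that met the limits of 1 class only, neither Hoxb4 nor Hoxb5 passed 1.5-fold, and with a 5% mitochondrial limit or doubled marker limits 1 member was lower. The class itself differed between the libraries, with Lmx1b at 43.8 and 22.8 CPM and Shox2 at 43.0 and 60.0 in f/f and f/w. The mix of neurons and the level per cell cannot be told apart in these ratios.

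Chon-like cells had 1 of 20 members higher, Hoxd11 (3.65 and 5.94 CPM), and 1 lower, Hoxa3 (5.65 and 3.23), against 1.64% and 1.41% of 10008 genes. Hoxd11 was not counted with a 5% mitochondrial limit, doubled marker limits or cells that met the limits of 1 class only, and the last of these gave 3 lower. SKM-like cells had none higher and 7 of 11 lower, against 2.47% and 10.3% of 8609 genes. These cells held 7625 Hox UMIs in f/f and 266 in f/w, so members met the minimum of 200 UMIs through f/f. That favours members high in f/f, so the count gives no direction for the family. Of the members below the minimum, Hoxa4 (123 and 13 UMIs) was at 0.96 (0.01 to 1.79) and Hoxb8 (111 and 1) at -2.59 (-7.91 to -0.08). Hoxc8 (24.8 and 5.45 CPM, 839 and 10 UMIs) and Hoxa7 (33.6 and 12, 1138 and 22 UMIs) had log2 ratios of -2.19 (-3.25 to -1.30) and -1.49 (-2.17 to -0.88). Hoxa9 and Hoxa10 were at -0.72 and -0.88 with intervals below 0, Hoxc6 and Hoxc9 at -0.97 and -0.60 with intervals that spanned 0, and Hoxc4 had 1 UMI in f/w. Only 113 SKM-like cells stand behind the f/w values, and a 5% mitochondrial limit left 4 lower. The 6 members tested in Endo-like, the 2 in Osteo-like and the 1 in Sch-like cells gave no call in either direction, where 1.07% and 2.54%, 1.9% and 2.01%, and 1.6% and 2.17% of the genes tested did. In Immu-like and Epi-like cells no member reached 200 UMIs.

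Summed over all cells, 11 of 36 members tested were higher in f/w and 1 lower, against 13.2% and 5.66% of all 14478 genes. Hoxc12 (1.90 and 4.67 CPM), Hoxc13 (2.24 and 5.28), Hoxd1 (0.482 and 1.07) and Hoxd13 (1.54 and 3.20) had the highest ratios, from 1.06 to 1.30. The others were Hoxb6, Hoxb8, Hoxb9, Hoxd9, Hoxd10, Hoxd11 and Hoxb13, and Hoxc5 was the lower one, at -0.87 (-1.10 to -0.64). The share of Neu-like cells, where most of these members were highest, was 3.75% in f/f and 8.61% in f/w, and that of Endo-like cells 2.89% and 8.49%. In these sums the makeup of the library and the level per cell cannot be told apart: Hoxb8 was higher over all cells, at 0.74, and lower in Neu-like cells, at -0.57.

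Among endothelial cells Hoxd8, Hoxd9 and Hoxd10 were higher in those with lymphatic markers. Endo-like cells with at least 3 UMIs of Prox1, Lyve1 and Ccl21a together, 166 and 499, were set against those with none, 143 and 232. UMIs of Ccl21a alone could fill the gate. Outside the endothelial class, Ccl21a was at 13.5 CPM in axial cells of f/f and 101 in those of f/w. Free RNA may thus add to the gate unequally between the libraries, and its part was not tested. This gate was chosen after the data had been seen. Of 17 members tested, 5 were higher in lymphatic cells and 2 lower, where 9.43% and 8.45% of all 9696 genes were. Hoxd9 was at 47.9 CPM against 4.71 in f/f and 50.9 against 5.39 in f/w, log2 ratios of 3.34 (2.42 to 4.44) and 3.24 (2.60 to 3.96). Hoxd10, its neighbour, was at 12.1 against 1.89 and 11.1 against 1.62, ratios of 2.68 (1.18 to 4.64) and 2.77 (1.60 to 4.25). Its UMIs were 31 and 4 in f/f and 101 and 6 in f/w. Hoxd10 thus met the UMI minimum through lymphatic cells, which favours members high there.

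Hoxd8, also of this stretch of the cluster, was at 38.9 against 21.2 and 37.0 against 22.9. Hoxd11, on the other side of Hoxd10, had 2 UMIs in the lymphatic cells of f/f and 3 in the others, and 16 and 4 in f/w, 1.75 against 1.08 CPM, with intervals that spanned 0. Hoxa7 and Hoxc9 also passed, with an interval that spanned 0 in f/f for Hoxa7 and in both libraries for Hoxc9. The lower members were Hoxb2, at 3.89 against 8.96 and 1.64 against 4.85, and Hoxa3, at 2.73 against 8.49 and 1.64 against 5.12. The mean paralog number was 7.26 and 7.39 in lymphatic against 6.27 and 6.32 in the other cells.

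**Figure D5:**
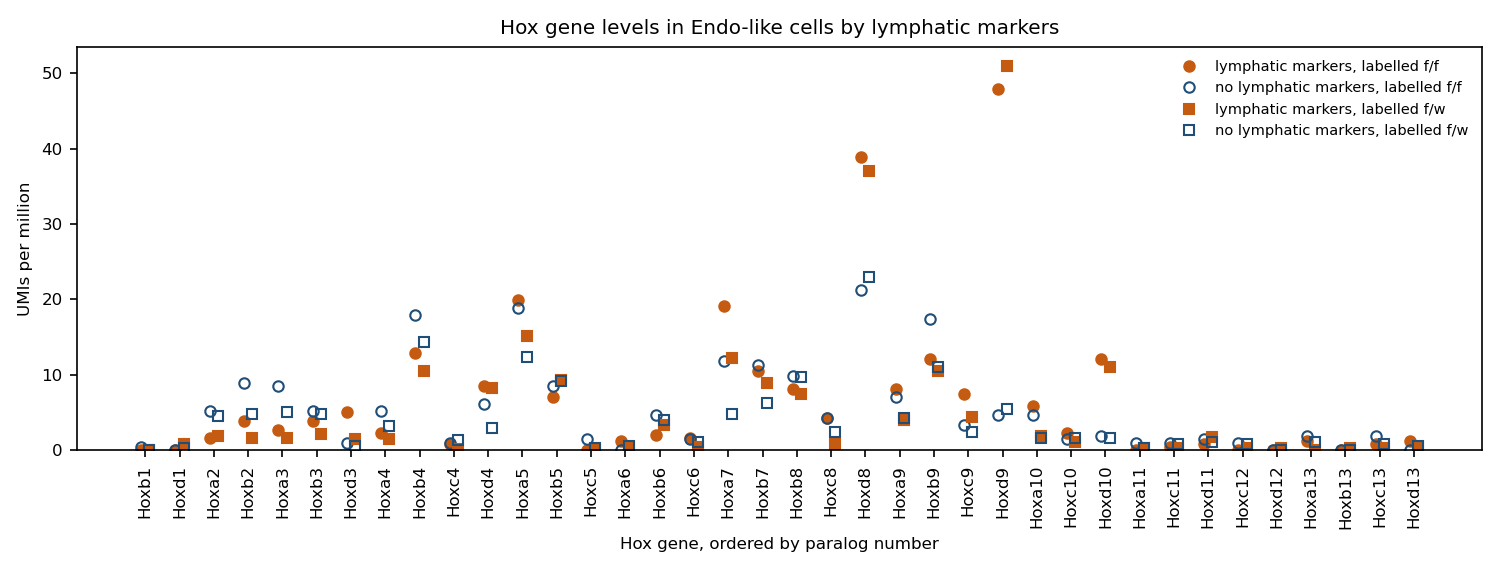
Level of Hox genes in CPM in Endo-like cells with at least 3 UMIs of lymphatic markers (filled) and with none (open), in the libraries labelled f/f (circles) and f/w (squares). Hoxd9 stands apart at 47.9 and 50.9 against 4.71 and 5.39, with Hoxd8 and Hoxd10 next.

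The windows in front of Hoxd9 and Hoxd10 are shown because these neighbours had the highest lymphatic ratios, chr2:74697513-74697762 and chr2:74691641-74691890, both on the plus strand and taken as above. Capitals again mark CCAAT on either strand.
Hoxd9: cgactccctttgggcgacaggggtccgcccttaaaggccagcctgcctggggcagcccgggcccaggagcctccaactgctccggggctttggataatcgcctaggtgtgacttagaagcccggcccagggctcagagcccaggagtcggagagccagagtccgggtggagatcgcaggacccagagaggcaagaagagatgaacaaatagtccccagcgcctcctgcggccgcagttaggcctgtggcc
Hoxd10: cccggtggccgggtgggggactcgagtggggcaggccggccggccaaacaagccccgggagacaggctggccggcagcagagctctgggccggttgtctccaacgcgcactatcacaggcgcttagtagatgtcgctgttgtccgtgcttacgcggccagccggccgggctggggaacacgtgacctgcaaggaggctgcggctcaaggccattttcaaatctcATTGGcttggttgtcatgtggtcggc

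Hoxd9 held no CCAAT and Hoxd10 held 1, on the other strand. They had 13 and 20 CG dinucleotides, and neither held any of the 3 other motifs.

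In muscle, Lbx1 marks the precursors that migrate into the limbs. It was found in 326 of 2223 SKM-like cells of f/f and in 11 of 113 of f/w, so few that 4 members could be tested. The 11 cells of f/w held 40 Hox UMIs in all, so single values there rest on few UMIs. Hoxa9 was higher with Lbx1, at 34.1 CPM against 18.0 in f/f and 41.9 against 8.15 in f/w, against 0.104% of 6708 genes higher and 0.969% lower, and no member was lower. In f/f alone Hoxa10 was at 30.6 against 14.4 and Hoxa11 at 11.1 against 3.94, while the thoracic Hoxc8 was at 12.6 against 27.3. Their log2 ratios were 1.09 (0.82 to 1.35), 1.5 (1.03 to 1.96) and -1.12 (-1.49 to -0.77). Hoxa9, Hoxa10 and Hoxa11 were also among the members higher in limb than in axial cells of the Mesen-like, Chon-like and Osteo-like classes. For Hoxa11 the interval there spanned 0 in f/w.

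Few genes that work with the family passed 1.5-fold between the libraries over all cells. Of the 9 Pbx, Meis and other TALE genes, whose proteins bind DNA with Hox proteins, 1 was higher in f/w and none lower. It was Pbx4, at 3.21 and 5.17 CPM over all cells. Pbx4 was highest in Neu-like cells, at 28.3 and 27.8 CPM, and was at 3.35 and 3.31 in Mesen-like cells. None of the 14 Polycomb genes tested, which keep Hox genes silent, passed 1.5-fold. Among them Ezh2, at 113 and 75.9 CPM and a log2 ratio of -0.58 (-0.62 to -0.54), lay just inside the limit. None of the 8 Trithorax genes and demethylases and none of the 8 noncoding and other genes of the clusters passed 1.5-fold. Of the Cdx genes and Gdf11, which start posterior Hox genes, 1 of 4 had enough UMIs, and it did not pass. Among 11 limb and tail position genes 3 were higher in f/w: Isl1 at 15.4 and 45.8 CPM, Hand2 at 6.01 and 11 and Pax9 at 6.07 and 9.25. Isl1 and Hand2 were highest in Neu-like cells, Isl1 at 301 and 378 CPM and Hand2 at 92.8 and 87.8. In Mesen-like cells Isl1 was at 10.3 and 28.7 and Hand2 at 6.21 and 6.13. Neu-like cells were 3.75% of f/f and 8.61% of f/w, so makeup and level per cell cannot be told apart in these sums. The background shares are those given for all cells, 13.2% higher and 5.66% lower.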

How the data were processed

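Cells sorted for tdTomato from 2 libraries, 1 per label, were sequenced from the 3′ end of transcripts. The deposited matrices hold counts of UMIs per gene and cell, made by the authors with Cell Ranger on mm10 (GRCm38); the matrix headers give version 5.0.0, while the submitters' processing notes give 3.1.0 with STAR, and Seurat 3.1.1 for later steps. The authors joined the libraries after thinning their reads to a like depth, which evens depth between libraries and lowers it in one of them.

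From these counts, cells were kept within 2 SD of the library's mean log UMIs and log genes and with at most 10% mitochondrial UMIs, which left 82.0% of 15268 barcodes in the library labelled f/f and 82.8% of 12498 in the one labelled f/w. A cell took the class whose marker UMIs met the limit (at least 3 to 8 UMIs over 2 or 3 markers). A cell meeting several limits took the one with a ratio of UMIs to limit at least 2 times the next, and was otherwise mixed. No doublet caller was run, and 788 and 762 mixed cells and 1646 and 1603 unassigned cells stayed out of the classes. No deposited annotation of cells was used. Fold changes are ratios of summed CPM with 95% intervals that are exact for how the UMIs divide between the sums, levels have exact Poisson and shares exact binomial intervals, and tools were Python 3.11.15, NumPy 2.4.6, SciPy 1.17.1 and pandas 2.3.3. The interval code was tested on simulated data.

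Some genes are not reported here by name. All other members could be named, with values for the leading 5 of a class and for members past a limit. Besides them, only Srsf2, genes of the position gates and genes of the cofactor and regulator lists have values. The members and lists were chosen with earlier results of these data known. The lymphatic gate, the cells without Isl1 as reference, the library comparison without Isl1 cells, the pairs of members and the CCAAT motif were chosen after seeing the data. Alternatives were other quality, mitochondrial and marker limits, folds, UMI minimums, thinning and denominators.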

Additional observations from a re-analysis of the deposited data

Results flagged for a closer look

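Some members moved in opposite directions between the libraries in different classes, with intervals on opposite sides of 0, where the values are the log2 ratio of f/w over f/f. Hoxb8 was at 0.45 (0.15 to 0.76) in Chon-like and -0.57 (-0.66 to -0.49) in Neu-like cells, a difference of 1.03. Hoxb9 was at 0.56 (0.38 to 0.74) in Mesen-like and -0.47 (-0.58 to -0.37) in Neu-like cells, a difference of 1.03. Hoxa9 was at 0.43 (0.11 to 0.75) in Chon-like and -0.72 (-1.39 to -0.12) in SKM-like cells, a difference of 1.15, with 113 SKM-like cells in f/w. In SKM-like cells Hoxa9 had 700 UMIs in f/f and 23 in f/w, so it met the UMI minimum through f/f. That favours members high in f/f, so no opposite direction is read from this pair of values. Hoxd9 was at 0.36 (0.09 to 0.64) in Endo-like and -0.41 (-0.71 to -0.09) in Neu-like cells, a difference of 0.77. Cells of the lymphatic gate were 166 of 362 Endo-like cells in f/f and 499 of 878 in f/w. Hoxd9 was at 47.9 and 50.9 CPM in them and at 4.71 and 5.39 in those without lymphatic markers. The part of the lymphatic share in the Endo-like ratio, and that of free Ccl21a RNA in this share, was not tested. None of these differences was tested, since each class has 1 library per label.

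Hoxa13 went opposite ways between the limbs. In f/f it had 26 UMIs in hindlimb and 0 in forelimb cells, a log2 ratio of 1.42 when the 0 is set to a floor of 3 UMIs in those cells. In f/w it had 12 and 12 UMIs, a ratio of -1.45 (-2.73 to -0.16) on CPM. The 2 values lie 2.86 apart, which is no bound, since the f/f interval starts at 1.02 and the f/w interval reaches -0.16, and the gap was not tested. Of the Mesen-like UMIs of Hoxa13, 40 of 68 in f/f and 58 of 71 in f/w lay in Isl1 cells. The part of Isl1 cells in the limb values of Hoxa13 was not tested.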

How the results depend on the processing

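No paired analysis was possible because each label has 1 library, and leaving out a library leaves no comparison. Of 399 values recomputed, 264 stayed close (a count within 1.5 times, a level or mean inside its interval) and 135 moved. The counts are members past the limit, f/w over f/f unless a gate is named, and the means are paralog numbers. Dropping the UMI and gene limits gave 1 lower in Neu-like cells. A mitochondrial limit of 5% gave Hox sums of 335 and 363 CPM, 3 lower over all cells, 4 in SKM-like, 1 in Neu-like and 1 in Endo-like cells, 0 higher in Chon-like cells, 8 lower with Isl1, and an Endo-like mean of 6.59 in f/f. Doubled marker limits gave 0 higher in Chon-like and 1 lower in Neu-like cells, 1 higher in hindlimb, 2 lower in limb, 2 higher with Lbx1, and a Mesen-like mean of 7.43 in f/w. Cells of 1 class only gave 0 higher and 3 lower in Chon-like and 0 lower in Neu-like cells, 1 lower in hindlimb and 11 lower in limb. Their means were 7.59 for Mesen-like in f/w, 7.13 and 7.34 for Chon-like, 7.54 for Neu-like in f/f and 6.33 and 6.43 for Epi-like. Leaving haemoglobin, mitochondrial and ribosomal protein genes out of the total gave Hox sums of 504 and 543 CPM and 2 lower over all cells.

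Thinning to 2000 UMIs, which weights cells alike and leaves fewer members with enough UMIs, gave Hox sums of 445 and 539 CPM. It gave 0 lower over all cells and in SKM-like cells, 0 higher in Mesen-like, 0 higher and 0 lower in Chon-like and 1 lower in Neu-like cells. The means were 7.31 for SKM-like in f/f, 7.15 and 7.71 for Mesen-like, 7.11 and 7.34 for Chon-like, 7.55 for Neu-like, 7.02 for Epi-like and 6.49 for pericyte-like cells in f/f. A limit of 2-fold gave 4 higher and 0 lower over all cells, 3 lower in SKM-like, 1 higher and 0 lower in Mesen-like, 0 and 0 in Chon-like and 0 lower in Neu-like cells. It gave 0 higher and 1 lower in hindlimb, 2 higher and 1 lower in limb, 2 lower with Isl1, 2 higher in lymphatic cells and 0 higher with Lbx1.

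A minimum of 50 UMIs gave 2 higher and 13 lower in SKM-like, 9 higher in Mesen-like, 5 higher and 2 lower in Chon-like, and 5 lower each in Osteo-like, Neu-like and Endo-like cells, with 1 lower in Sch-like and 3 in Epi-like cells. A minimum of 1 UMI gave 8 higher and 14 lower in SKM-like, 10 higher in Mesen-like, 9 and 3 in Chon-like, 3 and 8 in Osteo-like, 2 and 7 in Neu-like, 7 and 13 in Sch-like, 15 lower in Endo-like, 7 and 12 in Immu-like and 3 and 16 in Epi-like cells, at counts of a few UMIs. A minimum of 5 per library for the gates gave 6 lower in lymphatic cells and 4 higher with Lbx1. With 2 UMIs of a gate gene there were 0 lower in hindlimb and 4 higher in limb. Mesen-like cells alone gave 1 higher and 3 lower in hindlimb, and Chon-like cells alone 1 and 0 there and 1 higher in limb. Without Isl1 cells, a choice made after seeing the data, Mesen-like cells had 1 lower member and means of 6.87 and 7.23. The cause of these moves was not tested except where thinning or a minimum changes which members qualify. Depth limits members under 20 UMIs in a gate, and 113 SKM-like cells limit the f/w side of that class.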

Other observations

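Noncoding transcripts of the clusters and the cofactors of Hox proteins had their own class patterns. Hotairm1, of the Hoxa cluster, was highest in Epi-like cells, at 81.0 and 42.9 CPM in f/f and f/w, followed by Endo-like cells at 20.8 and 16.2. Hoxb5os, opposite Hoxb5, was at 27.5 and 13.5 CPM in Neu-like cells, while Hoxb5 was at 99.2 and 62.7. Hotair, of the Hoxc cluster, had 39 and 41 UMIs over all cells, and Hottip, at the end of the Hoxa cluster, 7 and 8.

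Among the TALE cofactors, Meis2 was at 150 and 164 CPM in Mesen-like, 141 and 168 in Neu-like and 103 and 55.7 in Epi-like cells. Meis1 was at 83.7 and 64.3 CPM in Neu-like and at 54.2 and 42.2 in Mesen-like cells.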
